A study of Mus musculus and Mus musculus
Oryx dammah with 30 samples.

Results

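The 10 genes described here encode α-tubulin (Tuba1a, Tuba1b, Tuba1c and Tuba4a) and β-tubulin (Tubb2a, Tubb2b, Tubb3, Tubb4b, Tubb5 and Tubb6). They were taken by gene symbol from tables of gene expression in nuclear transfer (NT) embryos, and every one of the 10 was listed in all tables used, among 53023 genes in the 4-cell table and in the D and DR table and among 55364 genes in the 2-cell table. The values are FPKM, the number of sequenced fragments relative to the length of the gene and to the total of the library, so that levels of different genes can be compared per length within a library. The comparisons made were between tubulin isotypes within a library, between embryos with and without α-amanitin, and between the groups labelled D and DR.

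All recipients were embryos of C57BL/6 oocytes and DBA/2 sperm, and the donor nuclei came from C2C12, a mouse myoblast line of the C3H strain. In the 4-cell experiment, nuclei were transferred from 46 h post insemination and the embryos were cultured without α-amanitin (3 libraries, headed S15, S17 and S7) or with it (3 libraries, headed S16, S18 and S8), each library being a pool of 3 embryos. In the 2-cell experiment, transfer began at 21 h (early) or 30 h (late), with 6 libraries without and 6 with α-amanitin, each a pool of 5 embryos. The column names of that table show 2 sets, one headed NT and Am (here the NT set) and one headed R and RAm (the R set), and do not say which is early. The groups D and DR were 4-cell NT embryos without α-amanitin, 3 libraries each of 4 pooled embryos, from an experiment in which transfer was made either from 40 h, with DNA replication still to come, or from 46 h, after it, and the labels do not say which letters stand for which. Every group, controls included, was kept in 0.1 µg/ml demecolcine, and no library without it was among the samples, so that the effect of demecolcine on tubulin RNA cannot be told apart from what all the embryos share.

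Microtubules are hollow polymers of α- and β-tubulin dimers, and each subunit comes in several isotypes encoded by separate genes that differ mainly in their tails and in the tissues that use them. Demecolcine, a relative of colchicine, binds the dimer, stops its assembly and arrests cells before division. Cells are known to watch their pool of free dimers and to destroy tubulin mRNA on the ribosome when it rises: TTC5 recognises the first residues of the newborn chain and, through SCAPER, brings in the CCR4-NOT deadenylase. α-Amanitin blocks RNA polymerase II, so that RNA found in its presence was there before or escaped the block.

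The bases that encode those first residues are shown because that control turns on the residues they encode. The sequences below are the first 30 coding bases, 5′ to 3′, of GENCODE transcripts on mm10, with the first 12 bases in capitals.
Tuba1b: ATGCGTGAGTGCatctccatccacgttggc
Tuba4a: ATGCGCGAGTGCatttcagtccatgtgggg
Tubb2a: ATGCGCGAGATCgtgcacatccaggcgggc
Tubb4b: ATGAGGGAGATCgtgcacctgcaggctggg
Tubb5: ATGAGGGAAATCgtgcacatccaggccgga
The start codons of Tuba1b and Tuba4a are at chr15:98934333-98934335 and chr1:75219193-75219195, both on the minus strand. Those of Tubb2a, Tubb4b and Tubb5 are at chr13:34077927-34077929, chr2:25224588-25224590 and chr17:35838051-35838053, also on the minus strand. Tuba1a, Tuba1b and Tuba1c lie close together on chromosome 15 and Tubb2a and Tubb2b on chromosome 13.

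The neighbouring copies are also near-identical in sequence, which bears on how far the counts of each can be read. Tubb3 (chromosome 8) and Tubb6 (chromosome 18) stand alone. Over the coding sequence Tuba1a and Tuba1b were 98.3% identical, Tuba1b and Tuba1c 97.9% and Tubb2a and Tubb2b 96.5%, whereas Tuba4a was 84.8% to 85.2% identical to the other α genes. Of all 50-base windows of the annotated transcripts, 24.5% in Tuba1a, 24.9% in Tuba1b and 47.3% in Tuba1c occurred in no other gene, against 100% in Tubb3 and Tubb6 and 99.9% in Tubb5. Tuba4a had 64.6% of its windows to itself and shared 34.6% with the overlapping gene Stk16, and Tubb4b had 58.7% and shared 32.4% with the pseudogene Tubb4b-ps1. Windows were also shared with genes outside the members: with AC157548.1, 46.6% in Tuba1a, 51.5% in Tuba1b and 32.5% in Tuba1c. With Tubb2a-ps2, Tubb2a shared 18.8% and Tubb2b 16.2%. Values of Tuba1a, Tuba1b, Tuba1c, Tubb2a and Tubb2b are therefore uncertain between those copies and also against such other genes. The summed α and β levels, and the shares taken from them, carry the same uncertainty.

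The 4-cell libraries held 1136771 to 3101002 counted reads, and all their values corresponded to whole reads (within 0.01 read). The other tables held 2603946 to 19181387 reads per library in D and DR and 4712268 to 10503779 in the 2-cell table, with 40.3% to 50.5% of values whole, so that the tables were counted in different ways and levels are tested only within a table. Of 10 embryo markers 9 or 10 were detected in each 4-cell library, and their sum was higher in all 3 libraries with α-amanitin (12238 to 16134 FPKM) than without (8983 to 9983 FPKM). Dppa3, at 8677 FPKM or more in every library, made up nearly all of it, while Khdc3 (median 25.5 with against 141 without) and Ooep (0.823 against 3.58) had lower medians with α-amanitin, and Zar1 did not exceed 0.182 FPKM. The part of this shift in the 4-cell differences of the tubulin genes was not tested. Of 15 myoblast markers 10 or 11 were detected in each 4-cell library, and their summed level ranged from 191 to 2265 FPKM with and 224 to 726 FPKM without α-amanitin in the 4-cell table, with Col1a1 at 0 in all 6 libraries, and was highest of all in the 2-cell library NT3 (4549 FPKM). Of 6 cumulus markers 1 or 2 were detected in each 4-cell library: Amhr2 lay between 14.5 and 31.6 FPKM in all of them, Hsd3b1 reached 0.473 FPKM, and Has2, Inha, Ptx3 and Tnfaip6 were at 0. In the 2-cell libraries Amhr2 reached 15.5 FPKM, Tnfaip6 4.84, Has2 2.37 and Inha 0.419 FPKM, while Ptx3 and Hsd3b1, and Myog of the myoblast list, were at 0 throughout. RNA was measured in pools, so that fewer contributing cells and less RNA per cell cannot be told apart.

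In the 4-cell table without α-amanitin, tubulin RNA was mostly of a single isotype per subunit: Tubb4b among the β genes and Tuba4a among the α genes. In D and DR, also 4-cell NT embryos without α-amanitin, this held for Tubb4b (67.0% and 63.2% of summed β FPKM). It did not hold there for Tuba4a (23.7% and 16.9% of summed α FPKM). Tubb4b, a broadly expressed β-tubulin, measured 26.7, 31.1 and 39.4 FPKM in S15, S17 and S7, and the next β gene, Tubb6, 1.50, 2.49 and 6.84 FPKM. Tuba4a, an α-tubulin that unlike the others is encoded without a C-terminal tyrosine, measured 12.1, 8.56 and 16.5 FPKM. Both stood above every other gene of their class in all 3 libraries, with no overlap. Below them, Tuba1c (0.444, 0.553 and 4.68 FPKM) and Tuba1b (1.64, 1.75 and 1.97 FPKM) overlapped, as did Tubb6, Tubb5 (2.64, 0 and 3.34 FPKM) and Tubb2a (1.09, 2.04 and 1.15 FPKM). Tuba1a was between 0.332 and 0.561 FPKM. The neuronal isotypes were at or near the limit of detection: Tubb3 at 0.470, 0 and 0 FPKM, and Tubb2b at 0 in all 6 libraries with and without α-amanitin, which allows up to 0.422 to 1.15 FPKM (3 reads; counting error only).

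**Figure D1:**
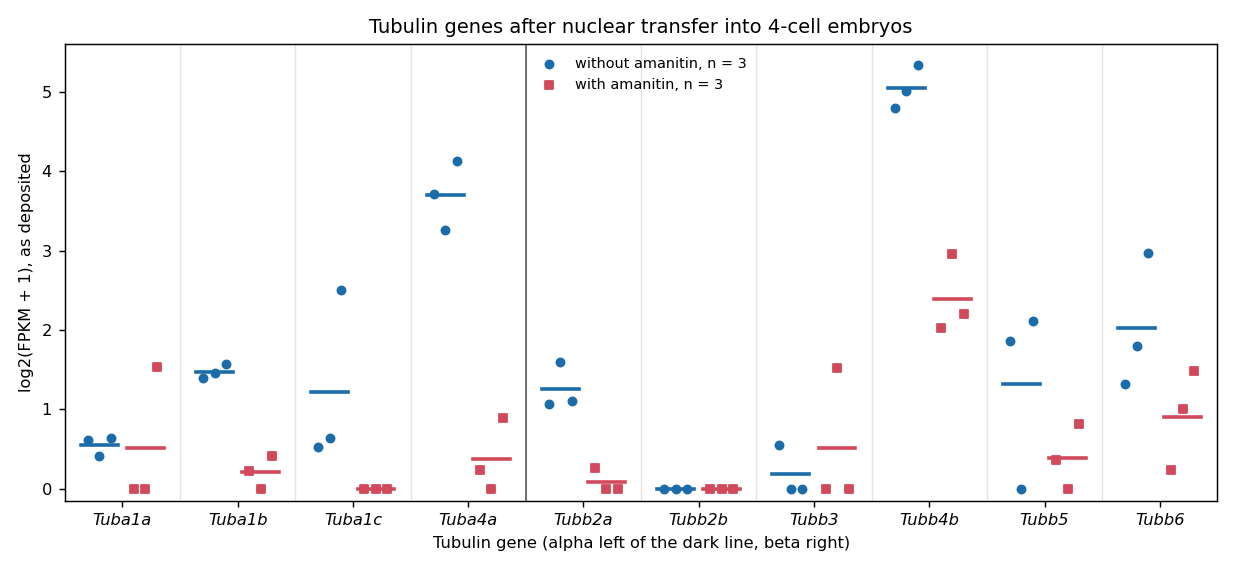
Levels of the 10 tubulin genes in each library of the 4-cell experiment, as log2(FPKM + 1) on the vertical axis, with circles for libraries without and squares for libraries with α-amanitin and bars for the mean of 3. Tubb4b and Tuba4a are the highest genes without α-amanitin and are lower in all 3 libraries with it.

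With α-amanitin, Tuba4a and Tubb4b stood lower in every library. Tubb4b measured 3.09, 6.74 and 3.62 FPKM in S16, S18 and S8 with α-amanitin, so that the groups did not overlap (32.4 ± 6.46 without and 4.48 ± 1.97 with, mean ± SD, n = 3 each). The difference, without minus with α-amanitin, was 2.65 on the log2(FPKM + 1) scale (SE 0.38, limma adjusted p = 0.00723). Tuba4a measured 0.174, 0 and 0.850 FPKM with α-amanitin, where the 0 allows up to 0.713 FPKM, and its difference was 3.33 (SE 0.45, limma adjusted p = 0.00579), a value to be read with the limit that Tuba4a passed the filter on low values only through the group without α-amanitin. Without that filter its adjusted p was 0.0200. In reads, Tubb4b went from 119 to 178 per library without to 12 to 20 with α-amanitin, and Tuba4a from 58 to 132 to between 0 and 5. Stk16, which overlaps Tuba4a, did not pass the test (difference 0.23, SE 0.34, adjusted p = 0.689), with 21.7 ± 4.03 FPKM without and 18.8 ± 6.07 with α-amanitin.

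The remaining members of the 4-cell table gave few reads. Tuba1b measured 0.172, 0 and 0.336 FPKM with α-amanitin and differed by 1.26 (SE 0.32, limma adjusted p = 0.0374), and Tubb2a measured 0.200, 0 and 0 FPKM and differed by 1.17 (SE 0.32, adjusted p = 0.0485), but these rested on 6 to 8 and on 4 to 6 reads per library without α-amanitin. Tubb6 (0.184, 1.00 and 1.79 FPKM with α-amanitin) differed by 1.12 (SE 0.54, adjusted p = 0.209). Tuba1a, Tuba1c, Tubb2b, Tubb3 and Tubb5 fell under the filter of 1 FPKM in at least 3 libraries and were not tested. In 5 of the 10 members (Tuba1b, Tuba1c, Tuba4a, Tubb2a and Tubb4b) the listed FPKM of all libraries without α-amanitin were above all with it, beside 27.6% of all genes tested. Tuba1c was not itself tested, and its zeros with α-amanitin allow up to 1.33 FPKM and those of Tubb2a up to 1.64 FPKM, above their lowest values without it, so that for these the groups cannot be called separate. Of the 10 members 5 were tested and 4 called higher without α-amanitin, beside 11.1% of all genes tested (1093 of 9884), but Tuba4a, Tuba1b and Tubb2a passed the filter only through the group without α-amanitin and had to differ, so that their number supports nothing. Without S7, the call of Tubb4b was lost (difference 2.50, adjusted p = 0.0544), and Tuba1b and Tubb2a lost theirs under median-of-ratios scaling (adjusted p = 0.0605 and 0.0683, with 7.69% of all genes called), with a pseudocount of 0.1 (6.81% called) and without the filter (1.23% called). Mitochondrial genes took 10.8% to 11.5% of summed FPKM without and 20.1% to 28.7% with α-amanitin, and their part in these differences was not tested.

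In 2-cell NT embryos without α-amanitin, Tuba1a had the highest mean of the α genes in both sets (60.4 ± 54.0 FPKM in the NT set and 11.9 ± 10.8 in the R set, SD, n = 3 each). Tuba4a had the lowest in the NT set (3.69 ± 1.82 FPKM), but in the R set (5.59 ± 1.40 FPKM) it was level with Tuba1c (5.62 ± 1.44) and Tuba1b (5.20 ± 2.09), and it was the highest α gene in r2. Tubb4b measured 38.2, 17.3 and 25.9 FPKM in the libraries NT1, NT2 and NT3 and 36.0, 50.6 and 47.0 FPKM in R3, r1 and r2 of the R set. Tubb5, the main β-tubulin of many dividing cells, measured 21.8, 10.8 and 30.3 FPKM in the NT set and 16.7, 27.6 and 18.0 FPKM in the R set, below Tubb4b in 5 of 6 libraries. Tubb5 was in turn above Tubb2a in 6 of 6 libraries (mean difference 1.61 on the log2(FPKM + 1) scale, SD 0.99, n = 6, exact sign-flip permutation test p = 0.0312, the smallest possible with 6 libraries, and 0.125 adjusted over 8 neighbouring pairs), and Tubb6 above Tubb2b in 6 of 6 (difference 1.70, SD 0.41, the same p and adjusted p). No neighbouring pair in the order of levels passed after adjustment, and all overlapped in range. The pairs were picked by sorting the same values, and a pair at the smallest possible p could not pass alone. The test therefore cannot decide the order.

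Tuba1a, the α-tubulin best known from the developing brain, had the largest SD between these libraries (36.1 ± 43.8 FPKM, n = 6). Relative to the mean, Tubb2b varied more (1.33 ± 1.76 FPKM). Tuba1a measured 47.2, 14.2 and 120 FPKM in NT1, NT2 and NT3 and 8.98, 23.8 and 2.84 FPKM in R3, r1 and r2. NT3 thus held the highest Tuba1a of all, and it also held the highest Tuba1b (42.6 FPKM), Tuba1c (33.0 FPKM), Tubb2a (26.8 FPKM), Tubb2b (4.84 FPKM), Tubb5 (30.3 FPKM) and Tubb6 (10.7 FPKM), as well as the highest myoblast marker sum given above. Whether donor RNA plays a part in these levels was not tested. Tuba4a measured 5.69, 3.25 and 2.12 FPKM in the NT set and 3.98, 6.34 and 6.46 FPKM in the R set. Tubb6 lay between 3.01 and 10.7 FPKM, Tubb2b between 0.235 and 4.84 FPKM and Tubb3 between 0.275 and 1.88 FPKM.

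**Figure D2:**
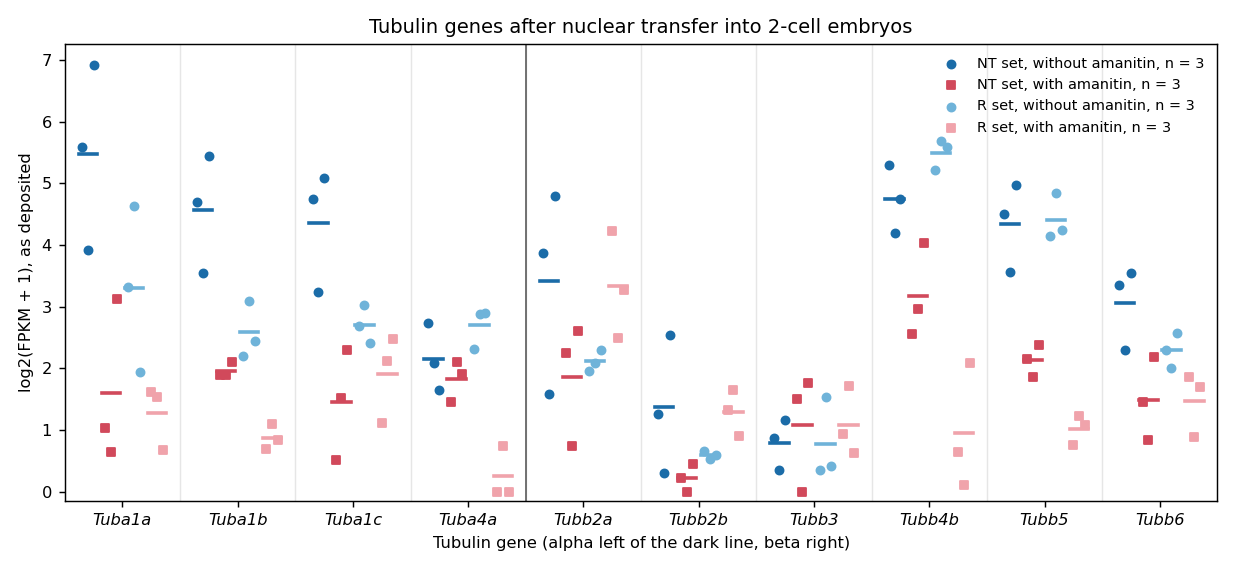
Levels of the 10 tubulin genes in each library of the 2-cell experiment, as log2(FPKM + 1) as deposited, by set (dark for the NT set, light for the R set) and by α-amanitin (circles without, squares with), with bars for the mean of 3. Tubb4b and Tuba4a reach their lowest values in the R set with α-amanitin, while Tubb2a of the R set is higher with than without it.

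With α-amanitin, Tubb4b and Tubb5 were lower in every library, Tubb4b most of all in the R set. Tubb4b measured 4.85, 6.77 and 15.3 FPKM in the 3 libraries of the NT set and 0.558, 0.0814 and 3.24 FPKM in those of the R set, below every library without α-amanitin. Tubb5 measured 3.44, 2.64 and 4.22 FPKM in the NT set and 0.684, 1.35 and 1.12 FPKM in the R set, again with no overlap. Tuba1a measured 1.05, 0.561 and 7.71 FPKM in the NT set and 2.05, 1.90 and 0.591 FPKM in the R set, and its range reached that of the libraries without α-amanitin. Tuba1b lay between 0.609 and 3.30 FPKM, below its lowest value without α-amanitin (3.60 FPKM), and Tuba1c between 0.431 and 4.53 FPKM.

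These libraries held spike-in RNA added in the same volume to each lysate, and the differences were measured after scaling to it. Spike-ins took 5.82% to 12.2% of summed FPKM without and 12.6% to 18.5% with α-amanitin. After scaling, the median difference of all genes was 1.49 on the log2(FPKM + 1) scale, against 0.67 for FPKM as deposited and 0.24 after median-of-ratios scaling, so that each tubulin value is to be read against it. Tubb4b differed by 4.13 (SE 0.62, limma adjusted p = 7.42e-05), Tuba1a by 3.97 (SE 0.61, adjusted p = 8.67e-05), Tubb5 by 3.85 (SE 0.43, adjusted p = 1.05e-05), Tuba1b by 3.12 (SE 0.47, adjusted p = 7.25e-05) and Tuba1c by 2.92 (SE 0.44, adjusted p = 8.16e-05). Tubb6 differed by 2.21 (SE 0.35), Tuba4a by 2.21 (SE 0.45, adjusted p = 0.000526), Tubb2a by 1.33 (SE 0.53, adjusted p = 0.0313) and Tubb2b by 0.80 (SE 0.34, adjusted p = 0.0440). Stk16, which shares 34.6% of the windows of Tuba4a, measured 8.86 ± 2.51 FPKM without and 2.89 ± 3.03 FPKM with α-amanitin (SD, n = 6) and differed by 2.68 (SE 0.51, limma adjusted p = 0.000339), and Tubb4b-ps1, which shares sequence with Tubb4b, differed by 3.31 (SE 0.47, adjusted p = 5.35e-05). Their part in the differences of Tuba4a and Tubb4b was not tested. Tubb3, for which 0.806 ± 0.651 FPKM without and 1.32 ± 0.985 with α-amanitin (SD, n = 6) were measured, differed by 0.31 after scaling (SE 0.34, adjusted p = 0.419).

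In all, 9 of 10 members were called higher without α-amanitin after spike-in scaling, beside 71.4% of all genes tested (12276 of 17196), and the median difference of the members was 2.57 beside 1.49 for all genes. With FPKM as deposited 7 of 10 were called (38.9% of all genes), and with median-of-ratios scaling 5 of 10 (21.9% of all genes): Tuba1a, Tuba1b, Tuba4a, Tubb4b and Tubb5. Tubb2a and Tubb2b were called after spike-in scaling but not under the other scalings, where their differences were 0.17 and 0.22 as deposited and −0.56 and −0.26 after median-of-ratios scaling. Without the library NT3, which held the highest value of both, the call of each was also lost (adjusted p = 0.0707 for Tubb2a). Tubb3 turned its sign as well, to −0.31 and −0.70. In FPKM as deposited, the groups did not overlap for Tuba1b, Tubb4b and Tubb5, 3 of 10 members, beside 16.3% of all genes.

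**Figure D3:**
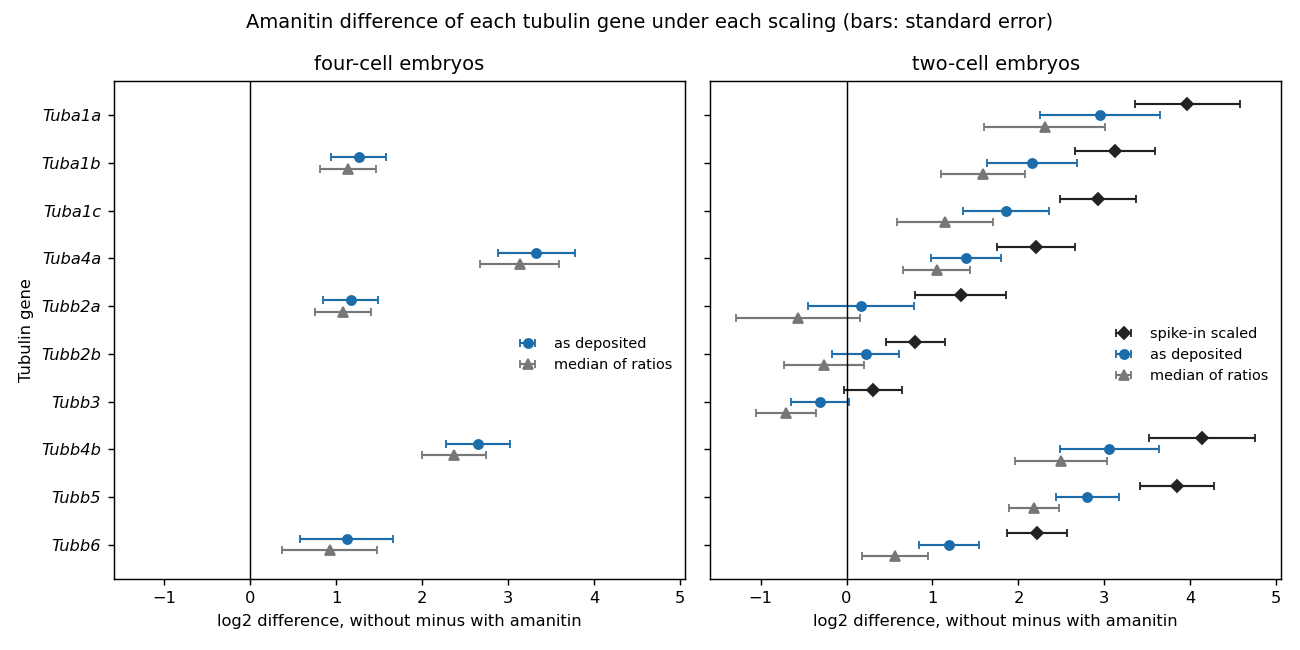
Difference without minus with α-amanitin for each tubulin gene, in log2 units on the horizontal axis, with bars for the standard error. The left panel is the 4-cell experiment (5 genes tested) and the right panel the 2-cell experiment. Tubb2a, Tubb2b and Tubb3 lie on either side of 0 depending on the scaling, while Tubb4b and Tubb5 stay above 2 in the 2-cell panel.

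The difference made by α-amanitin was larger in the R set than in the NT set for Tuba4a, Tubb4b and Tubb5, and also for the median of all genes, which was 0.88 in the NT set alone and 2.57 in the R set alone. In the NT set alone 29.5% of all genes were called higher without α-amanitin, in the R set alone 80.7%. Tubb4b differed by 2.31 (SE 0.53, adjusted p = 0.00973) in the NT set alone and by 5.96 (SE 0.36) in the R set alone, and the difference between these was 3.66 (SE 0.67, limma interaction, adjusted p = 0.000545). Tuba4a with α-amanitin measured 1.75, 3.27 and 2.75 FPKM in the NT set, where 2 of 3 libraries lay within the range without it and 1 below it, and 0, 0.673 and 0 FPKM in the R set, where each 0 allows up to 0.0858 or 0.116 FPKM. Its difference was 0.95 (SE 0.52, adjusted p = 0.169) in the NT set and 3.47 (SE 0.27) in the R set, and the interaction was 2.52 (SE 0.60, adjusted p = 0.00317). Tubb5 gave 2.89 (SE 0.47) and 4.81 (SE 0.26), with an interaction of 1.92 (SE 0.52, adjusted p = 0.00671). In the R set alone all 3 genes met the filter only through the group without α-amanitin, since 1 library with it reached 1 FPKM for Tubb4b, 2 for Tubb5 and 0 for Tuba4a, so that their R set differences support nothing by themselves. The interactions were fitted on all 12 libraries, where at least 3 libraries with α-amanitin reached 1 FPKM for each of the 3. Such an interaction was called for 53.2% of all genes (9150 of 17196), and the other 7 members gave none past the threshold. As deposited, 7651 of 17196 genes gave a called interaction. On that scale it was called for Tuba4a (2.11, adjusted p = 0.00415) and Tubb4b (2.98, adjusted p = 0.00492) but not for Tubb5 (1.18, adjusted p = 0.0716). With the opposite sign it was called for Tuba1c (−2.10, adjusted p = 0.0419), Tubb2b (−1.84, adjusted p = 0.0314) and Tubb2a (−2.77, adjusted p = 0.0443).

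Tubb2a went the other way when FPKM were taken as deposited. It measured 13.6, 1.99 and 26.8 FPKM without and 3.76, 0.666 and 5.07 FPKM with α-amanitin in the NT set, but 2.87, 3.22 and 3.94 FPKM without and 17.8, 4.60 and 8.69 FPKM with it in the R set, where all 3 libraries with α-amanitin were the higher ones. On that scale the R set alone gave −1.22 (SE 0.44, limma adjusted p = 0.0343, with 16.4% of all genes called lower) and the interaction −2.77 (adjusted p = 0.0443), whereas after spike-in scaling the R set gave 0.48 (SE 0.37, adjusted p = 0.245) and the interaction −1.70 (adjusted p = 0.139). Tubb2b had the same order in the R set, with 0.576, 0.442 and 0.503 FPKM without and 1.50, 2.13 and 0.873 FPKM with α-amanitin. In the same 3 libraries with α-amanitin, the sum of the 10 embryo markers was 1307 to 3188 FPKM against 7385 to 9084 FPKM without, and that of the 15 myoblast markers 1197 to 1781 FPKM against 164 to 545 FPKM. The members of these lists did not move together. Dppa3 made up most of the embryo sum without α-amanitin and was lower with it (median 842 against 7859 FPKM), as was Zp3 (22.7 against 69.4), while Oosp1 (1761 against 118), Padi6 (45.8 against 12.9), Nlrp5 (37.6 against 4.84), Gdf9 (20.9 against 5.52), Ooep (19.9 against 4.14) and Zar1 (2.35 against 0.148) were higher. Lgals1 (1119 against 222 FPKM) and S100a6 (104 against 32.5) made up most of the myoblast sum with α-amanitin, while Fn1 (2.45 against 17.1) and Col3a1 (0.669 against 10.3) were lower, and Myod1 and Myog were at 0 in the whole set. Of the cumulus list, Amhr2 was lower with α-amanitin in the R set (median 0.370 against 11.0 FPKM), while Has2 was higher (0.270 against 0.0121). The part of these shifts in the levels of Tubb2a and Tubb2b, and in the R set differences of Tuba4a, Tubb4b and Tubb5, was not tested.

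The make-up of tubulin RNA does not move with the scaling of a library. Without α-amanitin, Tubb4b made up 82.5% ± 4.82 of the summed β FPKM in 4-cell embryos (SD, n = 3), 67.0% ± 6.16 in D, 63.2% ± 4.05 in DR, 40.3% ± 12.7 in the NT set and 60.3% ± 2.33 in the R set of the 2-cell table. With α-amanitin its share was 70.3% ± 11.7 in 4-cell embryos and 47.5% ± 15.9 in the NT set, but 7.49% ± 10.4 in the R set, where Tubb2a held 55.6% ± 16.9 (40.8% to 74.0%) in place of 4.58% ± 0.794. Tuba4a made up 76.1% ± 6.33 of the α FPKM in 4-cell embryos, 23.7% ± 8.33 in D, 16.9% ± 5.04 in DR, 5.16% ± 3.93 in the NT set and 22.7% ± 11.6 in the R set of the 2-cell table (14.1% to 35.8%). With α-amanitin the share of Tuba4a was higher in the NT set (29.5%, 38.9% and 15.5%, all above the 1.07% to 8.90% without) and lower in the R set (0%, 9.54% and 0%, all below the 14.1% to 35.8% without). No α read at all was counted with α-amanitin in S18, so that no share exists there, and summed α FPKM in S16 and S8 were 0.346 and 3.10.

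**Figure D4:**
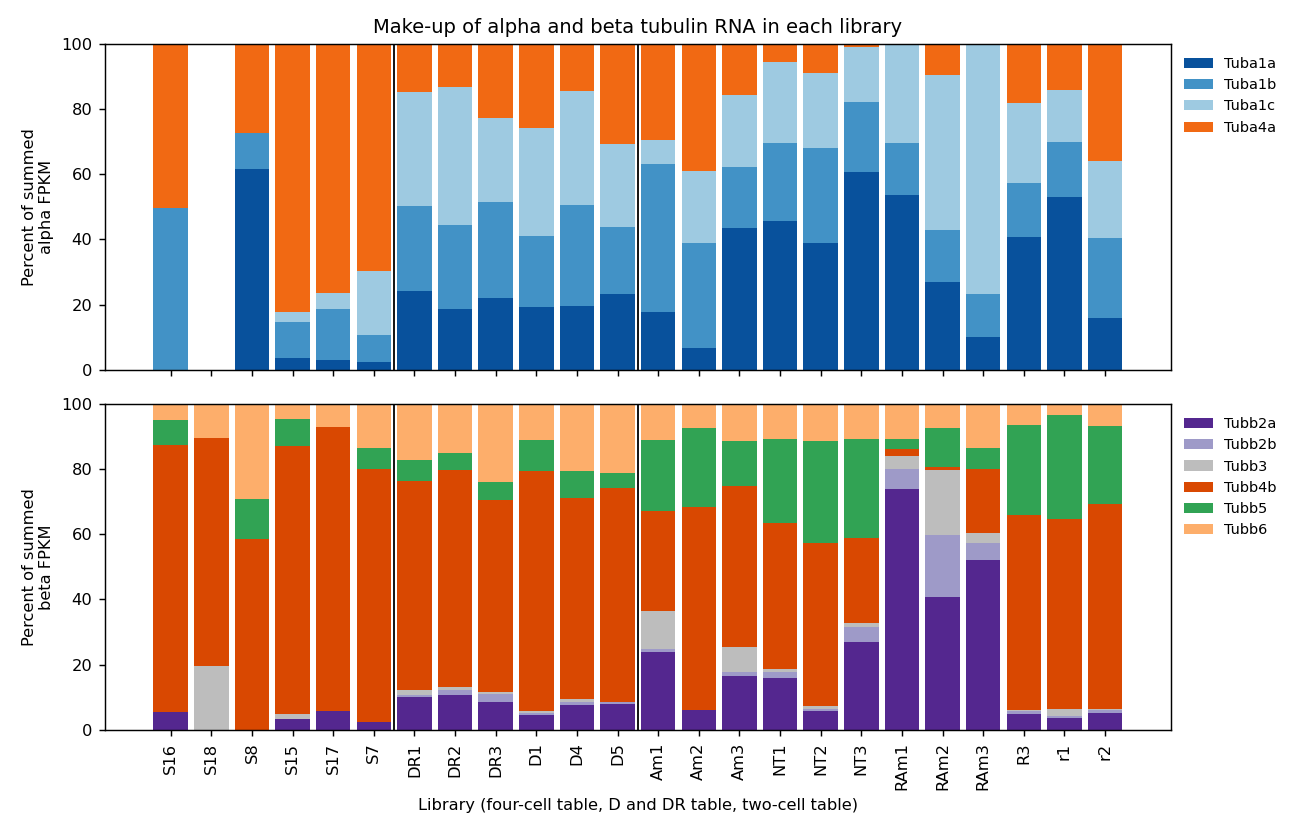
Share of each gene in the summed FPKM of the α genes (upper panel) and β genes (lower panel) in every library, in percent, with vertical lines between the 4-cell table, the D and DR table and the 2-cell table. Tuba4a is the largest α share in all 3 libraries of the 4-cell table without α-amanitin but elsewhere only in S16, D5, Am2 and r2, and Tubb2a is the largest β share in RAm1, RAm2 and RAm3. S18 has no α bar because no α read was counted.

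In the groups D and DR, no tubulin gene differed by the test. Tubb4b measured 30.3, 47.2 and 58.3 FPKM in D1, D4 and D5 and 19.7, 42.4 and 14.5 FPKM in DR1, DR2 and DR3, and Tubb5 measured 3.92, 6.50 and 3.97 FPKM in D and 1.99, 3.25 and 1.39 FPKM in DR. Tuba4a measured 8.29, 9.67 and 12.8 FPKM in D and 4.97, 7.56 and 5.14 FPKM in DR. In Tuba4a and Tubb5 the groups did not overlap, with D the higher, as for 3.99% of all genes tested, and in Tubb4b they did. Marker sums were also higher in D without overlap, for embryo (4631 to 5768 against 3496 to 4146 FPKM) and myoblast genes (478 to 567 against 268 to 444 FPKM). Khdc3 (30.8 to 56.4 against 87.3 to 110 FPKM) and Amhr2 (9.60 to 10.6 against 16.2 to 19.2 FPKM) were lower in D. The part of these shifts in the tubulin levels was not tested. As deposited, the differences DR minus D were −0.89 (SE 0.43) for Tubb4b, −0.87 (SE 0.33) for Tubb5 and −0.71 (SE 0.29) for Tuba4a, each with a limma adjusted p of 0.788. After spike-in scaling the 8 members tested differed by −1.57 to −2.49 beside a median of −1.41 for all genes, with adjusted p = 0.713 for each. The spike-in factors ran from 0.0945 to 5.65 within the 6 libraries and the standard errors of the members from 1.81 to 2.31, so that differences of this size were not detectable on that scale. No gene of 14570 was called (0%), while 88 had an unadjusted p under 0.05 after spike-in scaling and 897 as deposited.

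The α genes that share most of their sequence were also those whose level differed most between the tables. Median FPKM in 4-cell embryos without α-amanitin was 0.533 for Tuba1a, 1.75 for Tuba1b and 0.553 for Tuba1c, and in D and DR together, embryos of the same stage, 8.89, 8.64 and 11.2. For Tubb4b the medians were 31.1 and 36.4 and for Tuba4a 12.1 and 7.92. Tubb6, with all windows its own, also had a higher median in D and DR (7.77 against 2.49). For Tuba1a both groups, D (6.21 to 13.1 FPKM) and DR (4.97 to 10.7 FPKM), lay above every 4-cell library without α-amanitin. The experiments differ in pool size, in the counting of reads and, for one of D and DR, in the time of transfer (40 h in place of 46 h), which cannot be told apart here, and no test was run across tables. In particular, the low levels of Tuba1a, Tuba1b and Tuba1c in the 4-cell table, and with them the share of Tuba4a, are uncertain.

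**Figure D5:**
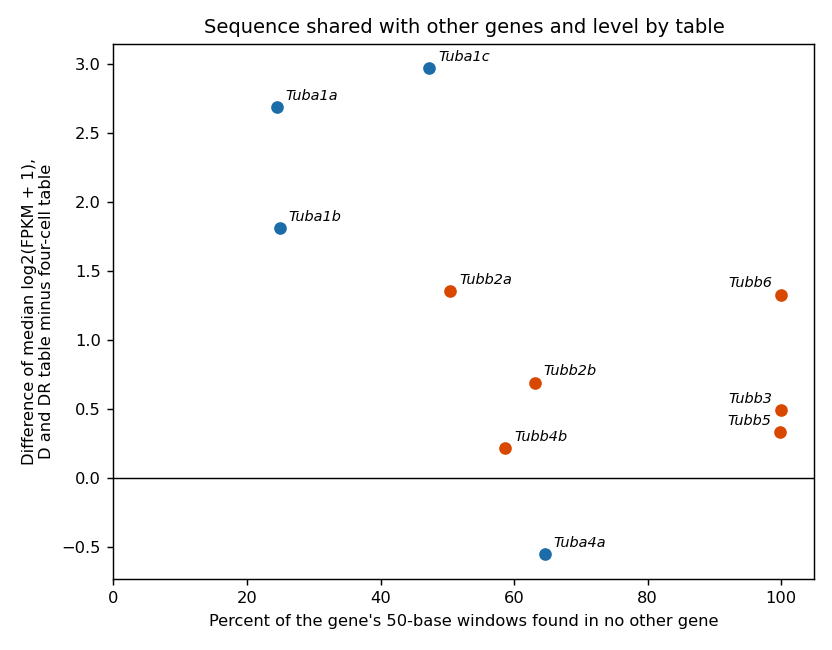
For each tubulin gene (blue for α, orange for β), the percent of its 50-base windows found in no other gene (horizontal) and the difference between its median log2(FPKM + 1) in the D and DR table and in the 4-cell table without α-amanitin (vertical). Tuba1a, Tuba1b and Tuba1c, with under 50% of windows of their own, lie at 2.69, 1.81 and 2.97, while Tuba4a lies at −0.55.

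The promoters of Tubb4b and Tubb5 are shown because these genes gave the β differences that held under every scaling of the 2-cell libraries. Both are the 250 bases before the transcript start in RefSeq on GRCm38.p6, written 5′ to 3′ along the gene, with matches to CCAAT or GGGCGG on either strand in capitals.
Tubb4b, chr2:25224703-25224952, minus strand: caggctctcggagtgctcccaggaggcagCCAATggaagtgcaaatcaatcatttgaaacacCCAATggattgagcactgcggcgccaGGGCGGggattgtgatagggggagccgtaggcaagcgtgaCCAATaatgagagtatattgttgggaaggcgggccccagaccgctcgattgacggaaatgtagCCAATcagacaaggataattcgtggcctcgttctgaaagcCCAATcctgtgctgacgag
Tubb5, chr17:35838302-35838551, minus strand: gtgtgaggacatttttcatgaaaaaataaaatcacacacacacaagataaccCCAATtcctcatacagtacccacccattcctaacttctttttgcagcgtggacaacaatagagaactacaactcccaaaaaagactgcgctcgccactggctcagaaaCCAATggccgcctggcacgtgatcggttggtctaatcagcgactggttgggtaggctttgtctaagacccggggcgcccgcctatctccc
The Tubb4b window held CCAAT 5 times, a number reached by 0.213% of 32851 windows of that length, and GGGCGG 1 time (32.7% of windows hold it). The Tubb5 window held CCAAT 2 times, a number reached by 10.1% of windows, while 33.9% held it at least once. Of the α genes, Tuba1a and Tuba1c held it 1 time each and Tuba1b and Tuba4a not at all, and TATAAA was found in Tubb2a alone among the 8 members with an entry, beside 12.4% of all windows.

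The machinery that folds tubulin and controls its RNA was examined from fixed lists. In 4-cell embryos none of the 14 subunits of the chaperonin and of prefoldin, which fold newborn tubulin, passed the test (median difference −0.03), and neither did any tubulin folding cofactor (0 of 5 tested), tubulin-modifying enzyme (0 of 7), microtubule regulator (0 of 9) or autoregulation factor (0 of 3). Of the γ-tubulin ring list, which nucleates microtubules, Mzt1 was higher without α-amanitin (71.4 ± 8.27 against 28.2 ± 9.27 FPKM, SD, n = 3, difference 1.35, SE 0.31, limma adjusted p = 0.0270), 1 of 6 tested. The call of Mzt1 was lost under median-of-ratios scaling (adjusted p = 0.0637), without the filter (0.0813) and without S18, S15, S17 or S7 (0.0780 to 0.127). These counts stand beside 11.1% of all genes called higher, and no member of these lists was lower.

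In 2-cell embryos after spike-in scaling, higher without α-amanitin were 14 of 14 chaperonin and prefoldin genes, 7 of 7 γ-tubulin ring genes tested, 4 of 5 cofactors, 9 of 10 modifying enzymes, 8 of 10 regulators, 2 of 3 autoregulation factors and 3 of 4 other tubulins, beside 71.4% of all genes, and none was lower. As deposited the numbers were 6 of 14, 3 of 7, 2 of 5, 3 of 10, 3 of 10, 1 of 3 and 2 of 4, beside 38.9%, and 1 regulator, 1 autoregulation factor and 1 other tubulin were lower. After median-of-ratios scaling they were 3 of 14, 1 of 7, 2 of 5, 0 of 10 (limma, with 0 at an unadjusted p under 0.05 also), 1 of 10, 0 of 3 and 1 of 4, beside 21.9%, and 1 cofactor (Tbca), 2 regulators (Kif2a and Spast), 1 autoregulation factor (Scaper) and 1 other tubulin (Tubg2) were lower, these being named after their values were seen. The chaperonin subunits Cct4 (difference 4.20, SE 0.68) and Cct5 (3.35, SE 0.61) led their list with the prefoldin subunits Pfdn2 (3.20) and Pfdn6 (3.15). Tbcc (3.78), Tbcb (2.82), Tbce (2.77), which bring α- and β-tubulin together, and Arl2 (1.05) were the cofactors called. The spindle factor Tpx2 differed by 3.58 (SE 0.76), the depolymerase Kif2c by 2.68, the polymerase Ckap5 by 2.50 and the severing enzyme Katna1 by 2.10. Of the ring genes, Mzt2 differed by 3.45, Nedd1 by 2.19, Tubgcp2 by 1.89 and Tubgcp5 by 1.42. Among modifying enzymes these were the deglutamylase Agbl5 (2.61), the glutamylase subunit Ttll1 (2.03), the acetyltransferase Atat1 (1.65) and the tyrosine ligase Ttl (1.33). Of the factors of autoregulation, Cnot11 (1.50, SE 0.35) and Ttc5 (0.94, SE 0.25), the reader of the newborn chain, were called at levels of 2.02 ± 0.772 and 0.978 ± 0.365 FPKM without α-amanitin (SD, n = 6). Ttc5 was not called as deposited (adjusted p = 0.152), and neither was called after median-of-ratios scaling (adjusted p = 0.839 for Ttc5 and 0.467 for Cnot11), where 1 of the 3 autoregulation factors was lower. Tuba3b (2.33), Tuba3a (1.73) and Tubg1 (2.17), the γ-tubulin, were the other tubulins. Tuba3a and Ttc5 were under 1 FPKM in every library with α-amanitin, so that they passed the filter only through the group without it and had to differ, and their calls and their part in the counts support nothing. As deposited, the calls of Tubgcp2 (adjusted p = 0.329), Tubgcp5 (0.0723), Tbcb (0.116), Arl2 (0.722), Ttl (0.126), Katna1 (0.0961) and Tubg1 (0.0656) were lost as well, and after median-of-ratios scaling Cct4, Cct5, Pfdn6, Tbcc, Tbce, Tpx2, Mzt2 and Tuba3a were the named genes still called. In D and DR no gene of any list was called.

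Over the 12 libraries of the 2-cell table, the genes whose log2(FPKM + 1) was most like that of Tubb4b were Cstf3 (Pearson r = 0.993), Fbxo38 (0.990), Tubb4b-ps1 (0.989), Clmp (0.986) and Gm15443 (0.986), and those most like Tuba1a were Gm7172 (0.980), Insig2 (0.975), Flna (0.967), Gm22723 (0.967) and AI837181 (0.966). These are descriptions over libraries that share the α-amanitin contrast, and Tubb4b-ps1 shares sequence with Tubb4b.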

How the data were processed

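The authors trimmed paired reads with Trimmomatic, Trim Galore and cutadapt, aligned them to mm10 with STAR, counted them with featureCounts and deposited FPKM per gene (versions not given in the sources used here). From these deposited FPKM values, 4 columns of the D and DR table matched no label and were not used, and the table on another donor species was not used. Genes with at least 1 FPKM in at least 3 libraries of a comparison were tested on log2(FPKM + 1) with limma 3.58.1 (trend) in R 4.3.3, with Benjamini-Hochberg adjustment over all genes and a call at 0.05. FPKM were scaled by the median ratio of spike-ins found in every library (47 in the 2-cell table, 19 in D and DR); the 4-cell table lists none and was used as deposited. Replicates are pools of embryos, and nothing says whether pools came from separate days. Members, lists and tests were chosen with earlier results of these data known. All 10 members were named with their values, and of each other list up to 4 called genes with the largest difference. Scripts were tested on simulated data. Windows, identities and motifs were computed in Python 3.11.15.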

Additional observations from a re-analysis of the deposited data

Results flagged for a closer look

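In 20 groups of 6 libraries of the 2-cell table, one for each tubulin gene with and without α-amanitin, 2 held a library whose gap to the next was large for the range of the group. The limit used is met by about 1 in 20 groups of normal values from a single population. Each group here pools the NT and R sets, and the groups share libraries, so that this rate does not apply. Tuba1a with α-amanitin was at 7.71 FPKM in Am3 (gap 0.792 of the range), and Tubb2b without α-amanitin was at 4.84 FPKM in NT3 (gap 0.749 of the range).

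The difference made by α-amanitin itself differed between the R set and the NT set of the 2-cell table (limma interaction, R minus NT, log2 after spike-in scaling) for 3 tubulin members: Tubb4b by 3.66 (adjusted p = 0.000545), Tuba4a by 2.52 (adjusted p = 0.00317) and Tubb5 by 1.92 (adjusted p = 0.00671). Such a difference was called for 53.2% of all genes tested. Of the other genes named above, the chaperonin and prefoldin subunits Pfdn2 (3.95), Cct4 (3.87), Pfdn6 (3.31) and Cct5 (2.53) met it, as did the cofactors Tbcb (5.45), Tbcc (2.77) and Tbce (1.70). The regulators Tpx2 (4.91), Ckap5 (3.17) and Katna1 (1.96) and the ring genes Tubgcp2 (4.52), Mzt2 (4.34) and Tubgcp5 (2.12) met it too. So did the modifying enzymes Agbl5 (3.59), Ttl (1.61) and Atat1 (1.42), the tubulins Tuba3b (3.45) and Tuba3a (1.71) and the autoregulation factor Cnot11 (1.39).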

How the results depend on the processing

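In the 4-cell comparison 1093 genes were higher and 112 lower without α-amanitin. With a pseudocount of 0.1 there were 673 and 59, without the filter 275 and 9, and under median-of-ratios scaling 760 and 223. Leaving out 1 library at a time gave 57 to 1362 higher and 6 to 131 lower (higher: 79 without S15, 129 without S17, 57 without S7, 511 without S18 and 651 without S8). Members called fell from 4 to 2 (Tuba4a and Tubb4b) under each of those settings of pseudocount, filter and scaling. Tuba1b (adjusted p = 0.0532 to 0.103) and Tubb2a (0.0513 to 0.115) lost their calls without any one library that left them tested, and without S15, S17 or S7 these genes and Tuba4a fell under the filter.

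In the 2-cell comparison 12276 genes were higher and 281 lower after spike-in scaling. FPKM as deposited gave 6694 and 1464, median-of-ratios scaling 3768 and 2443, no filter 167 lower, and leaving out 1 library 11375 to 12372 higher and 155 to 411 lower. Chosen after seeing the data, a set covariate gave 462 lower, the NT set alone 4207 and 110 (as deposited 1814 and 597), and the R set alone 759 lower (as deposited 2353). Directions turned under median-of-ratios scaling for Tubb2a (−0.56), Tubb2b (−0.26), Tubb3 (−0.70), Arl2 (−0.29) and Katna1 (−0.083), as deposited for Tubb3 (−0.31), in the R set as deposited for Tubb2a (−1.22), in the NT set for Tubgcp2 (−0.37), and in the NT set as deposited for Tubb3 (−0.29), Tubgcp2 (−1.12), Tubgcp5 (−0.12), Tbcb (−0.71) and Ttl (−0.036). The cause was not tested. Of 214 values of members, 184 kept direction and call, 24 lost the call and 6 turned. Tubb2a lost its call without Am2, NT1 or NT3 (adjusted p = 0.0707 to 0.0823) and Tubb2b without any of 7 libraries.

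Same-numbered 2-cell libraries did not deviate together (r of −0.0042 to 0.078 in 6 pairs), which cannot show whether they share a day or a batch. With the replicate block 11614 genes were higher and 323 lower, and Tubb2b lost its call (adjusted p = 0.0599). No paired analysis was possible in the other tables because the column numbers of D and of the 4-cell libraries are not those of the labels. Between D and DR no member was called under any setting, and leaving out 1 library gave 0 to 1 gene lower (1 without D5). Count-based tests were not run on any table, although the 4-cell values correspond to whole reads, nor was a stage covariate, since the columns do not show the stage. At the depth of the 4-cell libraries, levels under about 1 FPKM rest on few reads.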
